A study of Rattus norvegicus with 2 samples.

Results

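The genes described here are 8 genes that interferons induce, measured in H9c2 cells at 2 phosphate levels. They are the effectors Ifit1, Ifit2, Ifit3, Ifi27 and Ifi44, the transcription factor Irf1, and Psmb8 and Psmb9, which encode inducible subunits of the proteasome. They were chosen by symbol, through the Entrez gene identifier of each entry, and all 8 were listed in both libraries, among 8039 entries in all. RNA was sequenced from H9c2 cells, an established myoblast line from embryonic rat heart. The cells had been kept for 12 h in serum-free DMEM with 0.9 mM phosphate (control) or 2.5 mM phosphate (high phosphate). Each phosphate level had 1 library, so no value has a replicate error, no test between the conditions was possible, and the culture and the phosphate level cannot be told apart.

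Interferons are secreted signals of antiviral defence. Type I interferons act through the receptor chains IFNAR1 and IFNAR2 and the kinases JAK1 and TYK2 on a complex of STAT proteins with IRF9, which binds the interferon-stimulated response element (ISRE) in target genes. Interferon gamma acts through STAT dimers, which bind the gamma-activated site (GAS), and IRF1 is an early target that itself binds ISRE-like sequences. IFIT proteins bind viral RNA and hamper its translation. The immunoproteasome is a form of the proteasome in which PSMB8, PSMB9 and PSMB10 take the places of the constitutive catalytic subunits PSMB5, PSMB6 and PSMB7, which alters the peptides made for presentation on MHC class I. Many cells other than immune cells carry a basal level of these transcripts.

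The 3 Ifit genes, Ifi27 and Psmb9 were listed higher in the high phosphate library, by up to 2.05-fold in FPKM, whereas Ifi44, Irf1 and Psmb8 were listed slightly lower. FPKM scales the fragments counted for a gene by the length of its transcript and by the size of the library. The difference between the libraries was taken as log2((high phosphate FPKM + 1)/(control FPKM + 1)), called the log2 ratio. The added 1 makes the difference of a weakly expressed gene look smaller than it is in FPKM. It was compared with the 4366 genes that had a mean of at least 1 FPKM over both libraries, called measured genes. All 8 genes passed this filter. Of the 8 genes 5 were higher, against 50.5% of measured genes, and 3 were lower, against 49.4%. At least 1.5-fold higher on this scale were 4 of the 8 (Ifit1, Ifit2, Ifi27 and Psmb9), against 7.21% of measured genes. None of the 8 was 2-fold apart, against 2.63% of measured genes. The median log2 ratio was 0.56 over the 8 genes and 0.00 over all measured genes.

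Ifit1 (Entrez 56824) encodes a protein that binds viral RNA at its 5′ end. Its level was 22.2 FPKM in the control library and 44.1 FPKM in the high phosphate library, the largest log2 ratio of the 8 (0.96). Of the 873 genes in the same one of 5 equal bins of mean FPKM, 1.15% had a log2 ratio at least this high. Ifit2 (294091), an RNA-binding relative that also promotes apoptosis, was listed at 2.37 and 4.85 FPKM. These values were 2.05-fold apart as listed, and their log2 ratio with the added 1 was 0.80. Ifit2 was the least abundant of the 8 genes in both libraries. In its bin, which runs from a mean of 1 to 3.62 FPKM, 7.09% of genes had a log2 ratio at least as high.

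Ifit3 (309526), which binds and stabilises IFIT1, was listed at 6.18 and 9.26 FPKM, with a log2 ratio of 0.51. In its bin 9.62% of genes were at least as high, so of the 3 Ifit genes it stood out least from genes of like level. The level of Ifit1 relative to Ifit2 was 9.37 in the control and 9.08 in high phosphate, while that of Ifit1 relative to Ifit3 was 3.59 and 4.76. Such ratios within a library do not depend on how the libraries were scaled to each other. The 3 genes lie side by side on rat chromosome 1, together with Ifit1bl, a copy related to Ifit1 that was listed at 0.30 and 0.49 FPKM. The sources used here do not say how reads shared between such copies were assigned, so the split between Ifit1 and Ifit1bl is uncertain. The listed neighbours outside the Ifit group did not share one direction. Lipa, the lysosomal acid lipase gene next to Ifit2, was listed at 22.2 and 21.3 FPKM and the death receptor gene Fas at 18.1 and 16.4 FPKM, while the smooth muscle actin gene Acta2 was listed at 1647 and 2651 FPKM.

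Ifi27 (170512) encodes a small hydrophobic membrane protein that interferon alpha induces strongly. Its level was 999 FPKM in the control library and 1526 FPKM under high phosphate, with a log2 ratio of 0.61. It was by far the most abundant of the 8 genes and lay at percentile 98.6 of measured genes in the control. Its share of all listed FPKM was 0.325% in the control and 0.440% in high phosphate. In its bin of mean FPKM, the highest of the 5, 5.73% of genes had a log2 ratio at least as high. The neighbouring family member Ifi27l2b was listed at 273 and 388 FPKM (log2 ratio 0.51). The level of Ifi27 relative to Ifi27l2b was 3.66 and 3.93, so both family members were higher by a similar factor. The neighbour on the other side, the RNA helicase gene Ddx24, was listed at 4.03 and 4.52 FPKM.

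Ifi44 (310969), a cytoplasmic protein gene induced by type I interferon, was listed at 11.8 and 11.5 FPKM, with a log2 ratio of -0.03. It was the 1 effector of the 5 that was not higher, and 49.9% of genes in its bin had a log2 ratio at least as high. Irf1 (24508) was listed at 20.1 and 17.8 FPKM, with a log2 ratio of -0.17, the lowest of the 8. In its bin 71.4% of genes were at least as high. Both values therefore lay well inside the spread of genes of like level.

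Psmb9 (24967) encodes the inducible subunit that replaces PSMB6. It was listed at 36.9 and 59.9 FPKM, with a log2 ratio of 0.68, and 2.75% of genes in its bin were at least as high. Psmb8 (24968), whose product replaces PSMB5, was listed at 13.0 and 12.4 FPKM, with a log2 ratio of -0.07. Psmb9 was thus 2.83 times as abundant as Psmb8 in the control library and 4.84 times in the high phosphate library. The genes are near neighbours in the rat MHC on chromosome 20, with the peptide transporter gene Tap1 between them.

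**Figure D1:**
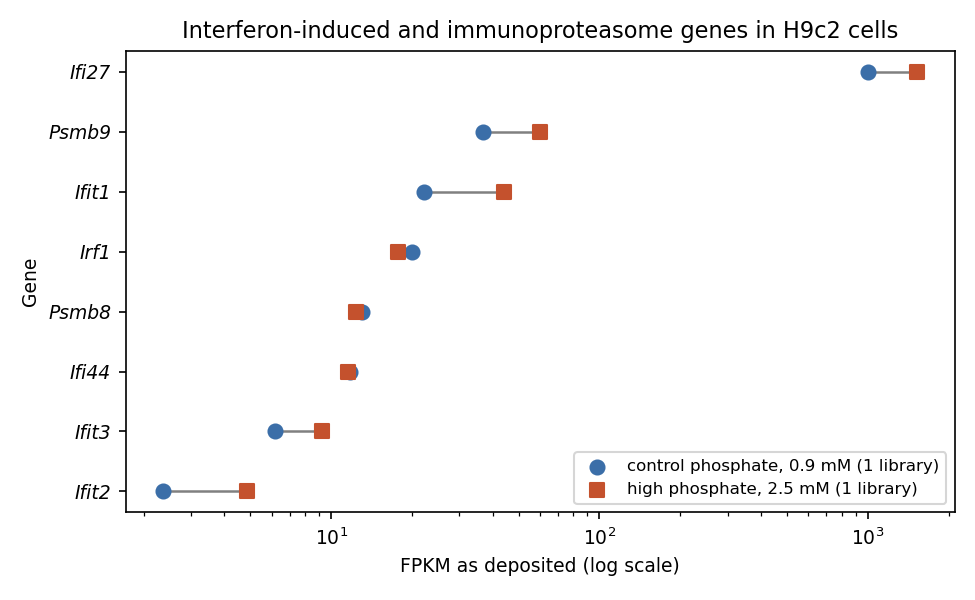
FPKM of the 8 genes (x axis, log scale) in the control library (circles) and the high phosphate library (squares), 1 library each. Ifi27 lies at 999 and 1526 FPKM and the other 7 genes between 2.37 and 59.9 FPKM; the squares of Ifit1, Ifit2, Ifit3, Ifi27 and Psmb9 lie to the right of their circles, and those of Irf1, Psmb8 and Ifi44 slightly to the left.

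By level in FPKM, the order of the 8 genes was the same in both libraries, as the plot of FPKM by gene shows. From high to low it was Ifi27, Psmb9, Ifit1, Irf1, Psmb8, Ifi44, Ifit3 and Ifit2. Without replicates it is not known which neighbours in this order differ beyond their spread. In the control library Ifit1 and Irf1 were 22.2 and 20.1 FPKM, close to each other, and in high phosphate they were 44.1 and 17.8 FPKM. The percentile of Ifit1 among the levels of measured genes was 61.6 in the control and 76.8 in high phosphate, and that of Irf1 was 59.1 and 56.2.

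**Figure D2:**
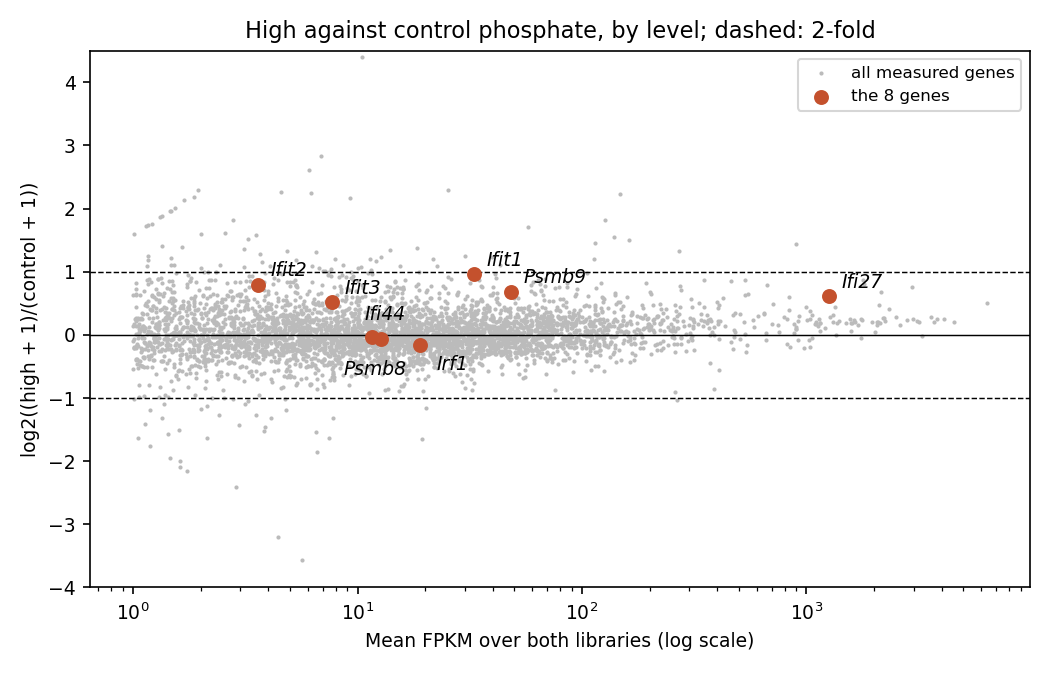
Log2 ratio of high over control phosphate (y axis) against mean FPKM of both libraries (x axis, log scale) for the 4366 measured genes (grey) and the 8 genes (red). Dashed lines mark 2-fold: all 8 genes lie between them, with Ifit1 highest at 0.96 and Irf1 lowest at -0.17.

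Promoter sequences were compared because the 8 genes are known as targets of ISRE and GAS binding factors yet lay at different log2 ratios. RefSeq promoter windows (assembly GRCr8, 250 bases before to 50 after the gene start) were at hand for 6 of the 8 genes, not for Ifit1 and Ifit2. The stretch from 180 bases before to 10 bases after the start is printed for each, 5′ to 3′ on the strand of the gene, with matches in capitals. The ISRE letters searched, on both strands, were GAAA, any 2 bases and GAAA again; the GAS letters were TTCNNNGAA, which read the same on both strands. Coordinates are those of GRCr8, not of the build named for the reads.
Ifit3, chr1:241527146-241527335 (plus strand): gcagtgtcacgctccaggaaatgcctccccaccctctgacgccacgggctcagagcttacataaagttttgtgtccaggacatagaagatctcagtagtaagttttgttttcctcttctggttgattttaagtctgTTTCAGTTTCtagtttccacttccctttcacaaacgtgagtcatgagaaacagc
Ifi27, chr6:128355132-128355321 (plus strand): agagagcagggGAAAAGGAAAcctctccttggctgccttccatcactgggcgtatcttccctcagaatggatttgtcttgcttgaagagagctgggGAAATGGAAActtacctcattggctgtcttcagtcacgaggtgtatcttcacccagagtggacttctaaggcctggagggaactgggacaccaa
Ifi44, chr2:243303831-243304020 (minus strand): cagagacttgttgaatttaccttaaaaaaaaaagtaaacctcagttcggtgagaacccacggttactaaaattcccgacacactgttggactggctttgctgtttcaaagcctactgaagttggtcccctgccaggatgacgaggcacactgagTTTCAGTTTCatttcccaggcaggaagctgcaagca
Irf1, chr10:38417755-38417944 (plus strand): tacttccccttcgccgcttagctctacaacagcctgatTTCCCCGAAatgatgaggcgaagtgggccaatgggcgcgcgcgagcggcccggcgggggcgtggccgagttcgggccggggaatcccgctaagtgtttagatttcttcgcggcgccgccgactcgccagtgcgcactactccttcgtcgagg
Psmb8, chr20:4657022-4657211 (minus strand): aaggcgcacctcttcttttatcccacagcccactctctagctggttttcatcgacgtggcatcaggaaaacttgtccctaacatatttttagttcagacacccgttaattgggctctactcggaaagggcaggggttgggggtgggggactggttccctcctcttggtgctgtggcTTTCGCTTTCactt
Psmb9, chr20:4668820-4669009 (plus strand): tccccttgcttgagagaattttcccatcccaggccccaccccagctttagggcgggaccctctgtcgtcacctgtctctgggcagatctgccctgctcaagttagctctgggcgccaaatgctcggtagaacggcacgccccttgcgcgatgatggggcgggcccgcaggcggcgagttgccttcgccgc

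The ISRE letters were found in 3.92% of 33465 distinct promoter windows of this table and the GAS letters in 8.87%. Of the 6 genes, Ifit3, Ifi27, Ifi44 and Psmb8 held the ISRE letters in the 300-base window, and Irf1 and Psmb8 held the GAS letters. No ISRE match overlapped a GAS match in these 6 windows. Positions count from the start of the gene, with the first transcribed base as 1 and negative numbers before it. Ifit3 and Ifi44 carried the same match, TTTCAGTTTC, beginning at position -44 in Ifit3 and at position -26 in Ifi44, and Ifi44 had another, TTTCGTTTTC, beginning at position 27. The log2 ratios of these genes were 0.51 and -0.03. Ifi27 held GAAAAGGAAA from position -169 and GAAATGGAAA from position -84. In Psmb8 the match TTTCGCTTTC spans the start itself, from position -4 to 6, and a GAS match, TTCCCAGAA, begins at position -245, outside the printed stretch. Irf1 held TTCCCCGAA from position -142.

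The window of Psmb9 held neither motif, although Psmb9 was higher in the high phosphate library and Psmb8, with both motifs, was not. The start of Tap1, on the opposite strand, lies 457 bases from that of Psmb9, and the window of Tap1 holds 1 ISRE match, which reads GAAACCGAAA on the strand of Psmb9. It lies 345 to 336 bases before the start of Psmb9, beyond the window searched for that gene. Stretches beyond the window were not searched for the other genes, and the share of 3.92% covers the windows only. Tap1 itself was not analysed here. Over all measured genes with a promoter window, 73 of 121 with the ISRE letters were higher in high phosphate (60.3%), with a median log2 ratio of 0.08, and 1731 of 3488 without them (49.6%), with a median of -0.00. The 121 include Ifit3, Ifi27, Ifi44 and Psmb8. They also include genes of the lists of related genes below, so this share is not independent of those lists. Among these, Oas1a, Oas1b, Irf7, Lgals3bp, B2m, Bst2, Lgals9 and Ifitm3 were higher and Psmb10 was lower. For the GAS letters the shares higher were 46.4% of 250 genes with them and 50.3% of 3359 without. A match is a match of letters only; no binding was measured.

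Other interferon-induced effectors were mostly listed higher too. Of 53 effector genes written down besides the 5 described, 28 were listed and 19 were measured. Of these 19, 17 were higher, against 50.5% of measured genes, and 2 lower, against 49.4%. Their median log2 ratio was 0.32. With both libraries brought to the same sum of listed FPKM (rescaled to the same sum), 13 of the 19 were higher, against 32.2% of measured genes. As deposited, 2 of them were at least 1.5-fold higher, against 7.21% of measured genes, and none after the rescaling. These were Lgals3bp, a secreted glycoprotein, with 154 and 247 FPKM, and Ifitm3, which blocks virus entry at endosomes, with 427 and 670 FPKM. The cytosolic nucleic acid sensor Zbp1 was lowest, with 2.49 and 1.68 FPKM, followed by Shisa5 with 10.7 and 8.73 FPKM. Some classic effectors were close to the bottom of the scale. Isg15, the ubiquitin-like modifier, was listed at 0.37 and 0.54 FPKM and Mx1, an antiviral GTPase, at 0.71 and 0.00 FPKM. Both were under a mean of 1 FPKM and were not counted; they were named after their values were seen.

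Among GTPases and chemokines that interferon gamma induces, 4 of 15 genes written down were measured. All 4 were higher, against 50.5% of measured genes (median log2 ratio 0.50). At least 1.5-fold higher were 2 of the 4, against 7.21% of measured genes. These were the chemokine Cxcl10 with 21.3 and 33.9 FPKM and the GTPase Igtp with 0.59 and 1.47 FPKM. The chemokine Cxcl11 had 2.25 and 3.16 FPKM and the guanylate-binding protein Gbp2 had 29.2 and 33.6 FPKM. Igtp passed the filter only through the library where it is higher, so its direction was fixed by the filter. Each of the 4 was also higher after rescaling to the same sum, against 32.2% of measured genes, and none was then 1.5-fold higher.

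The genes upstream of the effectors did not follow one direction. Of the JAK-STAT and IRF list, 7 of 20 genes were measured (median log2 ratio -0.16). Of these, 2 were higher, against 50.5% of measured genes, and 5 lower, against 49.4%, Irf1 among the lower. Irf7, the factor that amplifies type I interferon production and is itself an interferon target, was listed at 71.2 and 119 FPKM, and its log2 ratio of 0.73 was the highest of the list. Irf9, the DNA-binding partner of STAT proteins at the ISRE, was listed at 6.46 and 5.69 FPKM. Irf2, an antagonist of Irf1, was listed at 1.63 and 1.62 FPKM. The IRF2-binding corepressors Irf2bp1 and Irf2bp2 had 11.7 and 11.7 FPKM in the case of Irf2bp1 and 25.4 and 18.3 FPKM in that of Irf2bp2. Irf8 and Ciita were under 1 FPKM in both libraries, with at most 0.20 FPKM.

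Of the interferon and receptor list, 5 of 16 genes were listed. The receptor chains had similar values in both libraries, with 26.1 and 29.9 FPKM for Ifnar1 and 9.98 and 9.79 FPKM for Ifnar2. Ifnb1, the interferon beta gene, was listed at 0.98 and 0.73 FPKM, Ifna4 at 0.00 and 0.09 FPKM and the interferon gamma receptor chain Ifngr2 at 0.00 and 0.17 FPKM. All 5 measured genes of nucleic acid sensing, of 24 written down, were lower, against 49.4% of measured genes (median log2 ratio -0.32). The receptor-associated kinase gene Irak1, with 9.65 and 5.46 FPKM, was the 1 that was at least 1.5-fold lower, against 3.37% of measured genes. The adaptor Mavs had 4.44 and 3.32 FPKM, while Tbk1, the kinase that activates IRF3, had 15.9 and 13.8 FPKM and Traf3 10.3 and 10.0 FPKM. Of the 4 listed sensing genes under the filter, Sting1 had 0.00 and 0.48 FPKM and Tlr3 0.40 and 0.82 FPKM. Dhx58 had 0.51 and 0.24 FPKM and Aim2 0.01 and 0.00 FPKM.

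Of 10 measured genes that restrain interferon signalling or its triggers, 4 were higher and 6 lower (median log2 ratio -0.02). These counts lie near the shares of all measured genes, 50.5% higher and 49.4% lower. The feedback inhibitors Socs1 and Socs3, both interferon-responsive, had 2.05 and 2.04 FPKM in the case of Socs1 and 9.05 and 11.1 FPKM in that of Socs3. Lowest were the phosphatase Ptpn11 with 10.7 and 6.52 FPKM and Rnaseh2b with 8.24 and 6.80 FPKM, while Rnaseh2a, another subunit of RNase H2, was listed at 0.04 and 20.9 FPKM. Rnaseh2a passed the filter only through the high phosphate library, and a listed value this close to 0 can be a failed estimate.

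**Figure D3:**
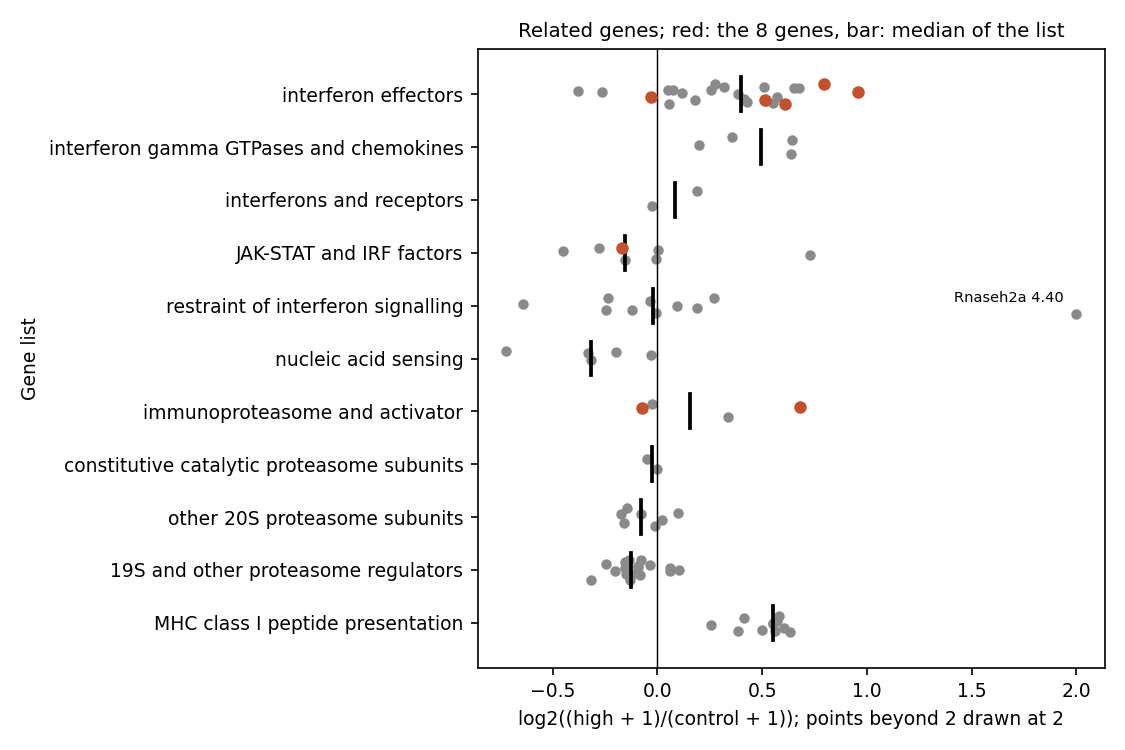
Log2 ratio of high over control phosphate (x axis) for each measured gene of the lists of related genes (rows); red points are the 8 genes, and the bar is the median of the list. The medians of interferon effectors (0.40 with the 5 described genes), interferon gamma GTPases and chemokines (0.50) and MHC class I peptide presentation (0.55) lie right of 0, and those of nucleic acid sensing (-0.32), JAK-STAT and IRF factors (-0.16), the 19S regulators (-0.13) and the other 20S subunits (-0.08) left of it, with the other lists between -0.03 and 0.16; Rnaseh2a, at 4.40, is drawn at 2.

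Psmb9 had the largest log2 ratio among the measured proteasome genes. Psmb10, the remaining inducible catalytic subunit, was listed at 63.3 and 62.2 FPKM, and the constitutive subunits Psmb5 and Psmb7 had 125 and 125 FPKM in the case of Psmb5 and 127 and 122 FPKM in that of Psmb7. The level of Psmb8 was 10.4% of that of Psmb5 in the control and 9.87% in high phosphate. That of Psmb10 was 49.9% and 50.8% of that of Psmb7. Psmb6, the counterpart of Psmb9, was not analysed here, but Psmb9 was at 29.5% of the level of Psmb5 in the control and 47.8% in high phosphate. So Psmb9 was higher relative to the constitutive catalytic genes, while Psmb8 and Psmb10 kept nearly the same proportion to theirs.

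The interferon-induced activator subunit Psme1 was listed at 100.4 and 127 FPKM. Its partner Psme2 was listed at 0.00 and 0.29 FPKM, and the essential core subunit Psma6 likewise at 0.00 and 0.32 FPKM. Since every cell uses Psma6, a listed 0 does not show that a gene is silent, and the same caution holds for low values of interferon genes such as Isg15. Of 7 other measured subunits of the 20S core, 2 were higher, against 50.5% of measured genes, and 5 lower, against 49.4%. Their log2 ratios ran from -0.17 for Psmb1 to 0.10 for Psma7. Of 18 measured genes of the 19S particle and other regulators, 3 were higher and 15 lower, against the same shares, with a median of -0.13. None was 1.5-fold apart, against 7.21% of measured genes at least 1.5-fold higher and 3.37% at least 1.5-fold lower. At the ends were Psme3, an activator subunit, with 52.8 and 42.2 FPKM and the inhibitor Psmf1 with 38.5 and 41.4 FPKM.

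**Figure D4:**
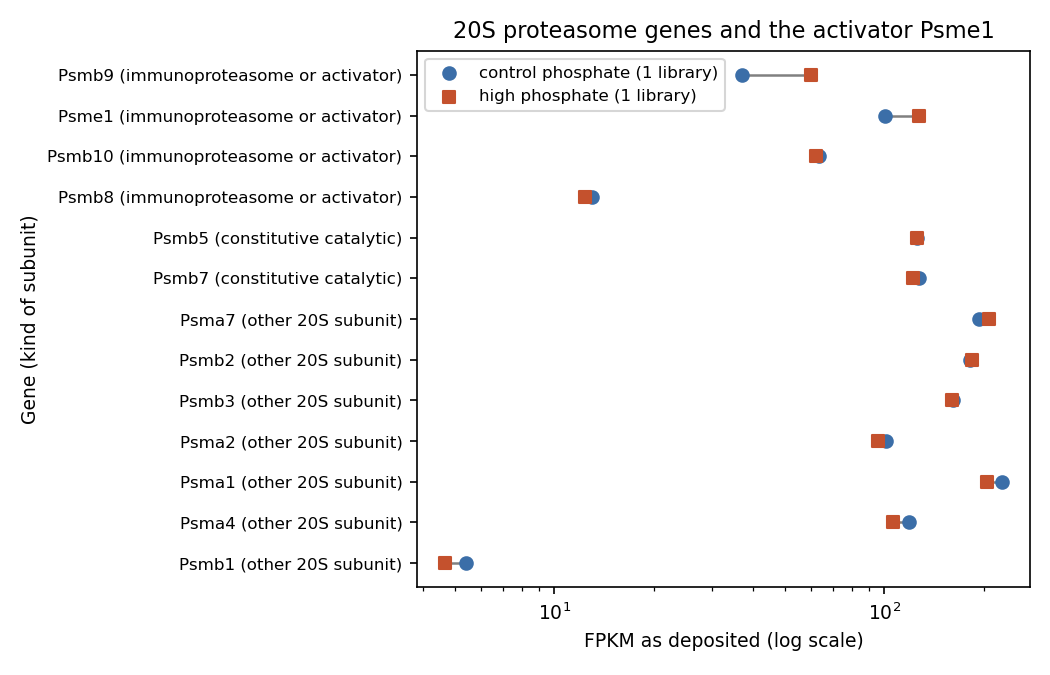
FPKM (x axis, log scale) of the measured 20S proteasome genes and the activator subunit Psme1 in the control library (circles) and the high phosphate library (squares), 1 library each. The widest gap is that of Psmb9, from 36.9 to 59.9 FPKM; circles and squares nearly coincide for Psmb10 (63.3 and 62.2 FPKM), Psmb5 (125 and 125 FPKM) and most other subunits.

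MHC class I molecules present the peptides that the immunoproteasome makes. All 11 measured genes of this list, of 22 written down, were higher, against 50.5% of measured genes. All 11 were also higher after rescaling to the same sum, against 32.2% of measured genes. Their median log2 ratio was 0.55 as deposited and 0.39 rescaled. B2m, the light chain of every class I molecule, was listed at 247 and 365 FPKM, and the heavy chain gene RT1-A2 at 26.0 and 38.6 FPKM. At least 1.5-fold higher as deposited were 2 of the 11, against 7.21% of measured genes: RT1-S3 with 1.64 and 3.09 FPKM and the chaperone Calr with 664 and 1012 FPKM. After the rescaling neither was (log2 ratios 0.50 and 0.43). The smallest differences were those of RT1-CE10 with 0.91 and 1.28 FPKM and RT1-N2 with 2.90 and 4.09 FPKM. RT1-CE10 passed the filter only through the library where it is higher, so its direction was fixed by the filter. Of the 2 listed genes under the filter, Tapbpl had 0.10 and 0.08 FPKM and RT1-CE3 0.22 and 0.57 FPKM. RT1 genes, which make up most of the measured genes of this list, are near-identical copies. The split of reads between them is uncertain, so their directions cannot be taken as independent of each other. Calr and Pdia3 are general folding factors of the endoplasmic reticulum.

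Markers of immune cells, which carry high levels of interferon-induced genes and immunoproteasome, were checked in the same files. Of 22 markers written down 13 were listed. Ptprc, the common leukocyte antigen gene, and Coro1a were listed at 0 in both libraries. Itgax was the exception, with 81.8 and 99.98 FPKM; whether that entry holds reads of another gene could not be checked. The other 12 summed to 4.86 FPKM in the control library and 7.35 FPKM under high phosphate. The highest single value among those 12 was 2.2 FPKM, that of the MHC class II gene RT1-Da in high phosphate. RT1-Da had 0.78 FPKM in the control and a log2 ratio of 0.85. It passed the filter only through the library where it is higher, so its direction was fixed by the filter. The part of these markers in the differences was not tested. Of 10 skeletal myoblast markers written down, 6 were listed. Des, the muscle intermediate filament gene, had 129 and 153 FPKM, the myogenic factor Myod1 6.11 and 1.59 FPKM and Acta1 1.57 and 1.64 FPKM. Myog, Myh3 and Chrna1 were under 1 FPKM in both libraries, with at most 0.45 FPKM. The 4 listed cardiomyocyte markers were under 1 FPKM as well, Myh7 and Ryr2 at 0 in both libraries. In such bulk RNA, fewer cells that express a gene and less RNA per cell cannot be told apart, for any gene described here.

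The 5 higher genes of the 8 stayed higher under every rescaling tried, but the size of the differences changed. Every rescaling lowered the high phosphate library, by factors from 0.887 to 0.997, so the 3 lower genes could only stay lower. Listed FPKM summed to 307622 in the control and 346857 in high phosphate, and rescaling to the same sum moved the median log2 ratio of all measured genes from 0.00 to -0.15. The median of the 8 genes was then 0.40, which is 0.55 above that of all measured genes, against 0.56 above it as deposited. After this rescaling 2 of the 8 genes, Ifit1 and Ifit2, were at least 1.5-fold higher, against 4.47% of measured genes. The log2 ratios of Psmb9 and Ifi27 were then 0.51 and 0.44, and those of Ifi44, Psmb8 and Irf1 were -0.19, -0.23 and -0.33.

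**Figure D5:**
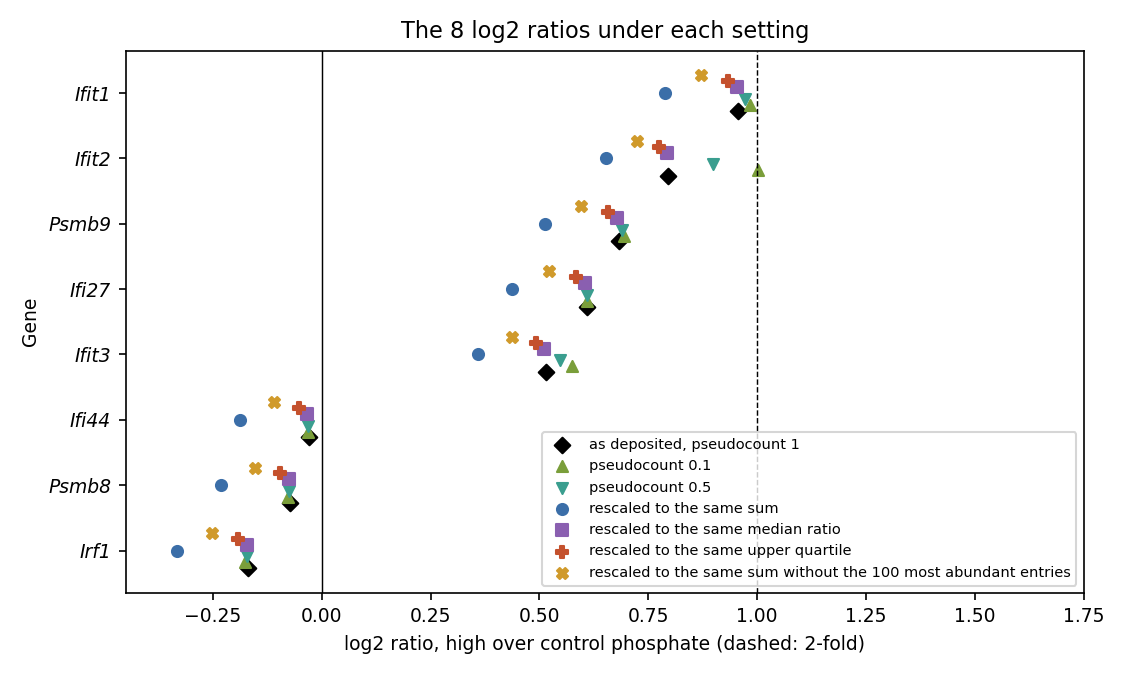
Log2 ratio of high over control phosphate (x axis) for each of the 8 genes (rows) as deposited with a pseudocount of 1 (black diamonds), with other pseudocounts (triangles) and after 4 rescalings of the libraries (other symbols). Ifit1, Ifit2, Psmb9, Ifi27 and Ifit3 stay right of 0 and Ifi44, Psmb8 and Irf1 left of 0 in each. The rescalings all lower the high phosphate library and a pseudocount keeps the sign, so Ifi44, Psmb8 and Irf1 could not cross 0. Only Ifit2 with a pseudocount of 0.1 reaches the dashed 2-fold line.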

How the data were processed

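Each library is 1 deposited table that the authors computed as FPKM, per the file headers, with 2 decimals. Tools in the submitters' processing notes are Cufflinks 2.2.1, Cuffdiff, TopHat2 2.1.1 and bcl2fastq, with the rat build Rnor_6.0. Not given in the sources used here are the gene annotation, the strand setting, the handling of multiply matching reads and the scaling between libraries. Rounding sets the steps of low values, so read numbers cannot be had from them, and values carry no counting interval because depth is unknown.

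Of 8039 entries, 236 had no usable identifier and were left out; 7746 of the other 7803 matched a symbol in a RefSeq table of GRCr8, used only for names and gene order. Log2 ratios used a pseudocount of 1 and genes whose mean was 1 FPKM or more. No test was run, as each phosphate level has 1 library. Alternatives were other pseudocounts, rescalings and filters. Besides the 8 genes, named genes were the ends of each list of related genes, members at least 1.5-fold apart and all listed genes of the short lists. A few genes so selected are not reported here. The genes and lists were chosen with earlier results of these data known. The calculation was tested on simulated data. Python 3.11.15, numpy 2.4.6, pandas 2.3.3 and matplotlib 3.10.9 were used.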

Additional observations from a re-analysis of the deposited data

How the results depend on the processing

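With no replicates and no read counts, a change between settings could not be read against an error; a value was called changed where it crossed 2-fold or changed sign, and a count or share where it moved by more than 1.5 times. The 5 higher genes stayed higher under all 4 rescalings. Each rescaling lowered the high phosphate library, by factors from 0.887 to 0.997, so the 3 lower genes could only stay lower. Another pseudocount cannot change a direction, as the same value is added to both libraries. The median log2 ratio of the 8 genes ran from 0.40 (rescaled to the same sum) to 0.59 (pseudocount 0.1). With a pseudocount of 0.1, Ifit2 reached 2-fold (log2 ratio 1.00), so 1 of the 8 genes was 2-fold apart instead of 0, against 4.88% of measured genes; a smaller pseudocount shrinks low values less. Where the filter was raised to a mean of 5 FPKM, 1.52% of genes were 2-fold apart. Rescaling to the same sum left 2 of the 8 genes at least 1.5-fold higher instead of 4, with 4.47% of measured genes past that fold and 32.2% higher. The ratio of Psmb9 to Psmb6 was not run. Unknown depth limits Ifit2 and other low genes most. No paired analysis was possible because each phosphate level has 1 library, and leaving out a library was not possible.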
